A study of Homo sapiens with 6 samples.

Results

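The genes described here are 6 signal transducers and activators of transcription (STAT2, STAT3, STAT4, STAT5A, STAT5B and STAT6) and 3 Janus kinases (JAK1, JAK2 and TYK2), chosen by name from 20037 protein-coding genes. Peaks of open chromatin were assigned to a gene where they overlapped its span in GRCh38 plus 10 kb on either side, here called the gene's window. Overlapping peaks of the 6 deposited lists were merged into 507440 regions, of which 177 lay in the windows of the 9 genes. Of the 37284 regions called in all 6 lists, 29 lay in these windows.

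The chromatin came from NCI-H1703, an established human cell line of lung squamous cell carcinoma, and was profiled by ATAC-seq, in which a transposase inserts sequencing adapters into open DNA. In 3 libraries (silenced 1 to 3, titled ASO) the long non-coding RNA DLGAP1-AS2 had been silenced, and 3 libraries (control 1 to 3, titled NC) came from control cells of the same line. The labels name neither the silencing sequence nor the control agent, nor a time after treatment, and all 6 libraries rest on 1 cell line. Whether the libraries of a group came from separate cultures is not given, so that p-values measure only the spread between these libraries, which may be technical.

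Janus kinases are tyrosine kinases bound to the inner tails of cytokine and growth hormone receptors. When a ligand brings receptor chains together, the kinases phosphorylate the receptor, STAT proteins dock there through their SH2 domain and are phosphorylated in turn, and the STAT dimers enter the nucleus and bind DNA. STAT2 acts mainly downstream of type I and type III interferons together with IRF9, STAT3 downstream of the IL-6 family, STAT4 downstream of IL-12, STAT5A and STAT5B downstream of growth hormone, prolactin and several interleukins, and STAT6 downstream of IL-4 and IL-13. The SOCS proteins, several of which are STAT targets, close the loop by inhibiting the kinases.

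The sequences upstream of 5 starts are shown because these starts cover the range of the readings: STAT3, STAT2 and TYK2 held tall peaks in every list, STAT5B held small peaks in only some lists, and STAT4 held none. Each is the 250 bases before the annotated start, from RefSeq (GRCh38.p14), 5′ to 3′ on the strand of the gene, in lower case with every CpG dinucleotide in capitals.
STAT3 (chr17:42388443-42388692, minus strand): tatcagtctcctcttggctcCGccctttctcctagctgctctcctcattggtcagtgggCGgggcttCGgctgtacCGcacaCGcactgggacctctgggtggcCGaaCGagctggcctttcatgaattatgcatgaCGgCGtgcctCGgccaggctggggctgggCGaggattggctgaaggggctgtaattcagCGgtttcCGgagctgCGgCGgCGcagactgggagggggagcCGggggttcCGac
STAT2 (chr12:56360108-56360357, minus strand): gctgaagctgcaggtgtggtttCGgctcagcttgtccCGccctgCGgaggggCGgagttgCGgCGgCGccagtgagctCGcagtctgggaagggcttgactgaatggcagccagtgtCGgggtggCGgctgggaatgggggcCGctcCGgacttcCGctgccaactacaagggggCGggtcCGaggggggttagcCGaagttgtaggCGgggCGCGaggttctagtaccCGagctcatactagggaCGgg
TYK2 (chr19:10380573-10380822, minus strand): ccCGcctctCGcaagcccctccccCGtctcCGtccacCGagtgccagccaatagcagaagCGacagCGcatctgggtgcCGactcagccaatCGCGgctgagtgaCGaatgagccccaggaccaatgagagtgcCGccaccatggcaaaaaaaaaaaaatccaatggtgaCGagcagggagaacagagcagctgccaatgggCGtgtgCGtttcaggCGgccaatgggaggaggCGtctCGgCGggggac
STAT5B (chr17:42276392-42276641, minus strand): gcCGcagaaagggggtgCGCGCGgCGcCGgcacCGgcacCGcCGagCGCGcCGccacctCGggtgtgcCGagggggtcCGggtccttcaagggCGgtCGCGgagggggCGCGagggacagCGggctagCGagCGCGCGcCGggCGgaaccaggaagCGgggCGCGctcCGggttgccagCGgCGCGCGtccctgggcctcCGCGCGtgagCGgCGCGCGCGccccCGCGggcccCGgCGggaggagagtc
STAT4 (chr2:191151597-191151846, minus strand): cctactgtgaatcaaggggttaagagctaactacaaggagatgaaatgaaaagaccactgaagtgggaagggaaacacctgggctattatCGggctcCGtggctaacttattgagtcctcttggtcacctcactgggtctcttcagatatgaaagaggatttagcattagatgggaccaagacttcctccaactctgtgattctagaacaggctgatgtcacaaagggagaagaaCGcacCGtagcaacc

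The upstream stretch of STAT3 held 18 CpG dinucleotides at 64.4% G and C, that of STAT2 held 21 at 67.2%, and that of TYK2 held 19 at 62.0%. STAT5B stood at the other end, with 47 CpG dinucleotides at 82.0%, and 97.9% of the 22199 protein-coding starts with a sequence had a lower G and C content. STAT4 had 4 CpG dinucleotides at 46.8% upstream of its first start, where 16.3% of all starts were lower. Over all 22199 starts the median was 62.0%, and 57.2% had a peak within 1 kb in all 6 lists.

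Motif letters were searched in the 250 bases before each start only. The GAS motif (TTCNNNGAA) and the core of the interferon-stimulated response element (GAAA, any 2 bases, GAAA) were searched on both strands. They were in 5.92% and 2.71% of all starts and in 0 of the 17 annotated starts of the 9 genes, which says only that these letters were not in these stretches. The TEAD motif (GGAATG) was in 10.5% of all starts and upstream of 2 of the 17, at position -119 from the start of STAT2 and -103 from the JAK1 start at position 64966936. The AP-1 motif was searched loosely as TGANTCA, with any base in the middle. These letters were in 5.36% of all starts and in 1 of the 17. The match, tgaatca, was at position -243 from the first start of STAT4, within the stretch shown above. It need not be an AP-1 site.

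The lists differed in length and depth. They held 162115, 167966 and 121406 peaks for silenced 1 to 3 and 170882, 91346 and 165674 for control 1 to 3. Read totals are unknown. The background coverage implied by the authors' heights and fold enrichments ran from 0.237 in silenced 3 to 0.464 in control 2. Control 2 stood apart: only 2.46% of its peaks had a height under 4, against 48.1% to 52.1% in the other lists. Height is the authors' pileup at a peak and is not scaled between libraries, so heights of different libraries are given as values, and groups were tested on ranks within each list. Among start sites of markers fixed for the cell type, SOX2 had a peak in all 6 lists, at heights of 22, 18 and 6 in silenced 1 to 3 and of 20, 18 and 17 in control 1 to 3. It was the only 1 of 8 squamous markers to do so, and KRT5, KRT6A and SERPINB13 had none. Of 5 adenocarcinoma markers, 3 were called in all 6 lists: NKX2-1, NAPSA and SFTPC. Of the genes that mark other cells, 1 of 6 lymphoid markers (TBX21), 1 of 4 myeloid markers (SPI1) and 1 of 4 fibroblast or endothelial markers (PDGFRA) were called in all 6, while PTPRC, CD2, CD3D, CD79A, LYZ and CDH5 were among those called in none. KRT6A, SFTPC, SPI1, LYZ and CDH5 were among the markers without an annotated start. These were measured at either gene end, so a peak there may not lie at the start.

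The STAT and JAK windows carried about as many peaks in silenced as in control libraries. Silenced 1 to 3 held 83, 74 and 57 peaks in the windows, and control 1 to 3 held 81, 61 and 81. The means were 71.3 ± 13.2 and 74.3 ± 11.5 (SD, n = 3), a difference of -3.0 that is smaller than either SD. Its sign turned when silenced 3 (4.17), control 1 (0.333) or control 3 (0.333) was left out. As a share of each list, the windows held 0.0512%, 0.0441% and 0.0469% of the peaks in silenced libraries and 0.0474%, 0.0668% and 0.0489% in control libraries, with control 2 the highest.

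Of the 177 regions in the windows, 101 (57.1%) were called in a single list and 29 (16.4%) in all 6, against 74.1% and 7.35% of all regions. No region was called in all 3 silenced and no control libraries, where 0.13% of all regions were. A single region, inside STAT4, was called in all 3 control and no silenced libraries (0.565% of the 177, against 0.2% of all regions).

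A peak within 1 kb of an annotated start was called in all 6 lists for 6 of the 9 genes: STAT2, STAT3, STAT6, JAK1, JAK2 and TYK2. That share, 66.7%, is near the 62.6% of the 15843 protein-coding genes with an annotated start. STAT5B had such a peak in 4 lists, STAT5A in 2 and STAT4 in none, and 17.1% of all genes had none.

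**Figure D1:**
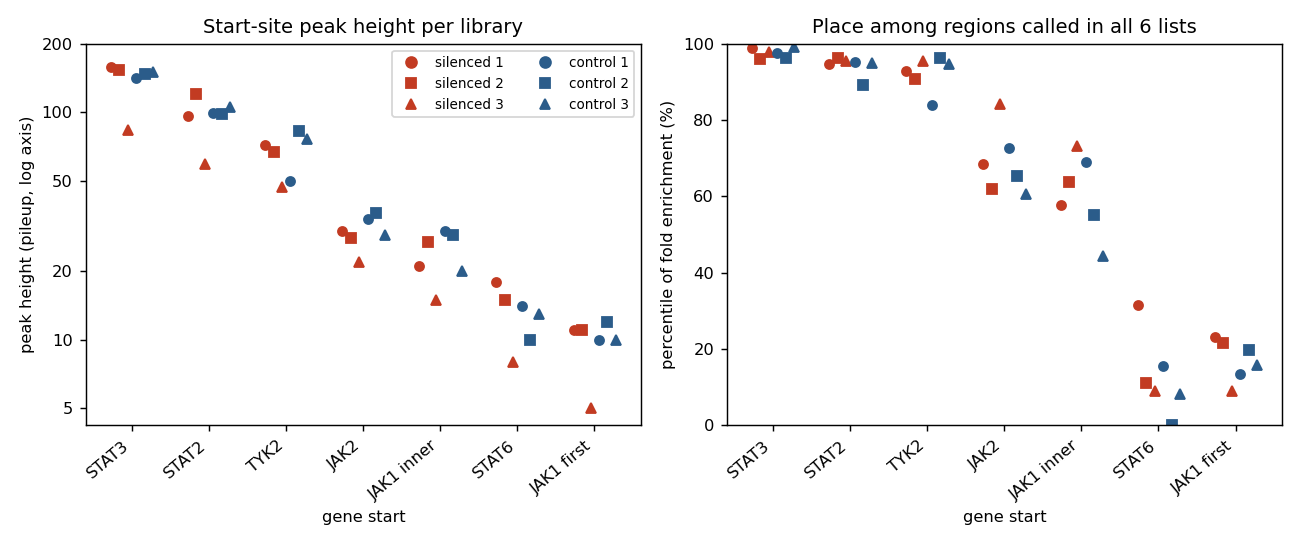
Height of the peak at the 7 start-site regions called in all 6 lists (left, log axis, authors' pileup) and within-list percentile of fold enrichment among the 37284 shared regions (right, 0 to 100). Points are libraries, red for silenced and blue for control, with the marker giving the replicate; STAT3, STAT2 and TYK2 sit above the 80th percentile in each library, and the STAT6 region and the JAK1 first start lie low.

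JAK1 is the kinase shared by the interferon, IL-6 family and common gamma chain receptors. It has 3 annotated starts in 2 separate regions (chromosome 1, span 64833229 to 65067746, minus strand). The region at the inner starts (chr1:64965881-64967037), whose midpoint lies 101 kb inside the gene, had heights of 21, 27 and 15 in silenced 1 to 3 and 30, 29 and 20 in control 1 to 3. The region at the first start (chr1:65066591-65068251) had heights of 11, 11 and 5 and of 10, 12 and 10. In every library the inner region was the taller, and at both the groups overlapped.

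The within-list percentile, the rank of a region's fold enrichment among the 37284 shared regions, was 60.6 ± 10.5 (SD, n = 6) at the inner starts and 17.1 ± 5.4 at the first start. For a test, ranks were turned into normal scores, on which 1 unit is 1 SD of all regions of a list. Silenced minus control came to 0.228 (SE 0.263) at the inner starts and 0.0257 (SE 0.403) at the first start, with adjusted p = 0.966 and 0.998 (limma, Benjamini-Hochberg over 37284 regions). The sign at the first start turned under several alternatives given in the closing section.

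The JAK1 window of 255 kb held 54 regions, 9 of them called in all 6 lists. Among 787 genes with a window of similar length (a ratio of at most 5 to 4) the median was 3, and 98.1% had 9 or fewer. By density, JAK1 had 3.54 shared regions per 100 kb, and 59.3% of all genes had a lower density. Besides the starts, the tallest was chr1:64933210-64933812, inside the gene and 32737 bp from the nearest start, with heights of 32, 29 and 21 in silenced and 35, 36 and 35 in control libraries. That region was taller than the first-start region and the inner-start region in every library. Next came chr1:64917350-64918033 (21, 24 and 14 against 24, 28 and 18), chr1:64898038-64898858 (16, 20 and 15 against 21, 23 and 24), chr1:64915789-64916207 (21, 13 and 13 against 13, 15 and 14) and, beyond the start, chr1:65075295-65075772 (15, 13 and 9 against 8, 18 and 14). Their score differences ran from -0.115 to 0.448, each with an adjusted p of at least 0.965 (limma).

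JAK2, the kinase of the erythropoietin, thrombopoietin and growth hormone receptors, has 4 annotated starts on the plus strand of chromosome 9 (span 4984390 to 5129948). A single region (chr9:4984284-4985621) covered 3 of them. Its heights were 30, 28 and 22 in silenced and 34, 36 and 29 in control libraries. The groups overlapped, by the silenced 1 and control 3 values. The percentile was 68.9 ± 8.64 (SD, n = 6), and the score difference was 0.173 (SE 0.245, adjusted p = 0.972, limma). Silenced 3 had the lowest height of the 6 libraries but the highest percentile (84.1). Without silenced 3 the score difference was -0.0272.

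The JAK2 window was otherwise almost empty. Its 166 kb held 4 regions, and the start region was the only 1 called in all 6 lists, or 0.604 per 100 kb. The median protein-coding gene had 2.8 (quartiles 0.972 and 5.18), and 20.9% of genes had a lower density than JAK2. Among 1398 genes with a window of similar length the median was 2 shared regions, and 28.3% had 1 or fewer. The start at position 5041532 had no peak in any list.

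TYK2, the kinase of the interferon alpha, IL-12 and IL-10 receptor families, had a tall start region (chr19:10380311-10381100, on the minus strand of a span from 10350533 to 10380572). Heights were 72, 67 and 47 in silenced and 50, 83 and 76 in control libraries, so the groups overlapped. The percentile was 92.5 ± 4.63 (SD, n = 6), and the lowest, 83.9, was in control 1. The score difference was 0.0304 (SE 0.224, adjusted p = 0.993, limma). It was -0.21 without control 1 and -0.0717 without silenced 3. Another 2 regions of the window were called in all 6 lists, both small: chr19:10361592-10361887 in the gene (5, 4 and 8 against 4, 11 and 7) and chr19:10388891-10389330 upstream (8, 15 and 8 against 6, 19 and 19).

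STAT3, the factor of IL-6 family signalling, had the tallest start of the 9 genes (chr17:42388304-42389292; span 42313324 to 42388442, minus strand). Heights were 158, 153 and 84 in silenced and 142, 148 and 150 in control libraries. All values but that of silenced 3 lay within a narrow range, and silenced 1 was the highest. Its percentile was 97.7 ± 1.47 in silenced and 97.7 ± 1.41 in control libraries (SD, n = 3), never below 96.1. The score difference was -0.0216 (SE 0.218, adjusted p = 0.996, limma), and its sign turned when silenced 2 (0.119) or control 3 (0.151) was left out.

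The body of STAT3 held 4 more regions called in all 6 lists, 3 of them within 7 kb of each other near the far end of the gene. At chr17:42322783-42323348 heights were 33, 46 and 28 in silenced and 35, 31 and 49 in control libraries. At chr17:42325069-42325379 they were 14, 32 and 14 against 24, 35 and 35. At chr17:42328970-42329744 they were 42, 40 and 20 against 30, 37 and 34. At this last region each silenced percentile (81.0, 63.0 and 73.6) was above each control percentile (57.6, 62.5 and 59.7), as at 5.39% of all shared regions. The score difference there was 0.362 (SE 0.239, adjusted p = 0.963, limma), larger than its SE and not called. The fourth region, chr17:42379070-42379858, was small (5, 7 and 3 against 6, 9 and 5). With 5 shared regions in 95.1 kb, the STAT3 window had as many as or more than 96.6% of 2296 genes with windows of like length.

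STAT2, the interferon factor that pairs with IRF9, also had a tall start (chr12:56359942-56360659; span 56341597 to 56360107, minus strand). Heights were 96, 120 and 59 in silenced and 99, 98 and 106 in control libraries, with silenced 2 the highest and silenced 3 the lowest. The percentile was 94.4 ± 2.53 (SD, n = 6). The score difference was 0.185 (SE 0.196, adjusted p = 0.965, limma). The other shared region of the window (chr12:56333616-56334472; 48, 63 and 33 against 51, 57 and 48) lay within 1 kb of an annotated start of the neighbouring gene PAN2, a subunit of a poly(A) nuclease, and is not near a STAT2 start.

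STAT6, the IL-4 and IL-13 factor, had peaks at and upstream of its annotated start at position 57110289 (span chr12:57095408-57111362, minus strand, which extends past that start). All 3 regions described next also lie within 1 kb of an annotated start of LOC124902946. The region called in all 6 lists within 1 kb (chr12:57110872-57111521) lay 583 bp from the start. Heights were 18, 15 and 8 in silenced and 14, 10 and 13 in control libraries. A smaller region at the start itself (chr12:57110294-57110806) was called in all 3 silenced libraries (11, 11 and 9) and in control 2 (13), and not in control 1 or 3. The upstream region had the largest score difference of the 29, 0.771, with an SE of 0.522 and adjusted p = 0.963 (limma). That value depended on control 2, where the percentile was 0.154, and it was 0.174 without this library. With another library left out it reached up to 1.16. Without silenced 2 the region was not called as 1 region, so no value was given.

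The tallest region upstream of the STAT6 start, chr12:57111633-57112679, lay 1344 bp from it. Its heights were 22, 30 and 14 in silenced and 32, 38 and 33 in control libraries. Every silenced value was below every control value, on height and on rank: the percentiles were 46.9, 50.4 and 44.6 against 70.6, 62.1 and 64.0. Of all shared regions, 8.79% were separated in this direction on height and 4.78% on rank. The score difference was -0.47 (SE 0.255), with the smallest unadjusted p of the 29 regions (0.0818) and adjusted p = 0.963 (limma). The 2 adjacent upstream regions had differences of opposite sign, neither called after adjustment. A further shared region in the window (chr12:57087118-57089106; 29, 32 and 14 against 33, 38 and 37) lay at the start of NAB2, a corepressor of EGR factors. The STAT6 window had 8.34 shared regions per 100 kb, the densest of the 9, and 88.7% of genes had a lower density.

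**Figure D2:**
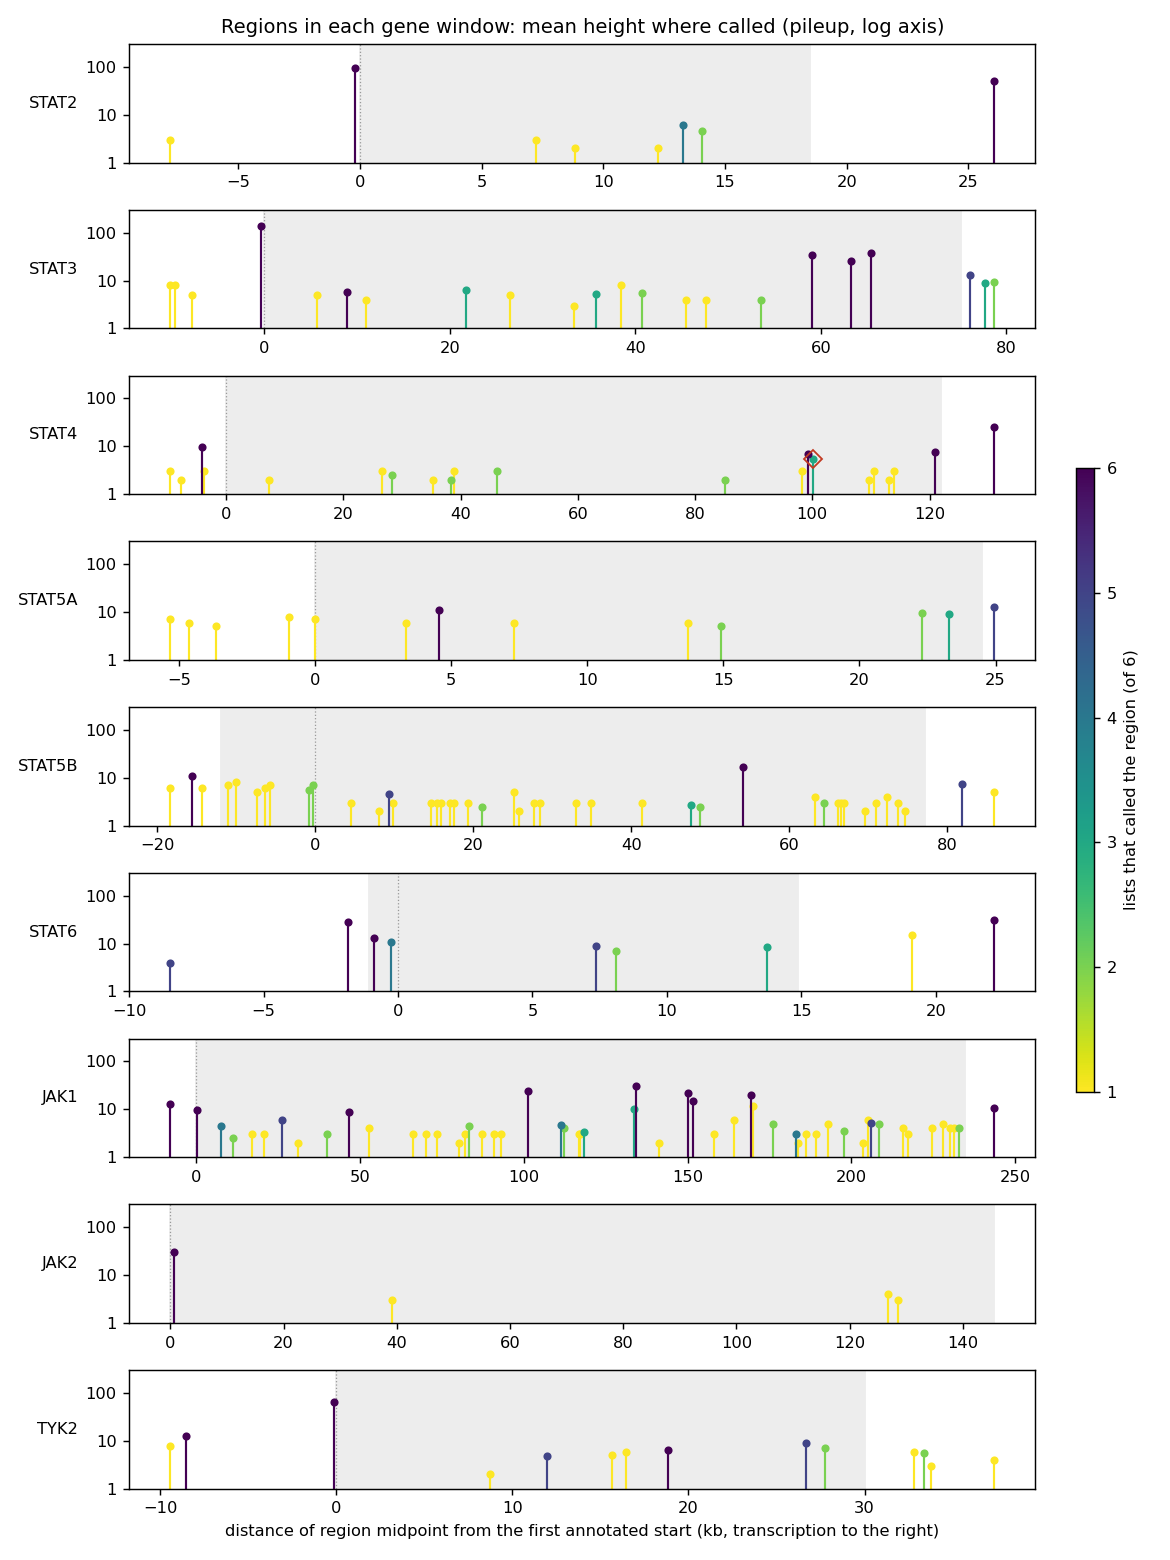
Regions in the window of each gene by distance from its first annotated start (kb), with colour giving the number of lists that called the region, grey the gene span and the dotted line the first annotated start. Other annotated starts are not marked. JAK1 is dotted with shared regions, JAK2 is nearly empty beyond its start, and the red diamond in STAT4 marks the region called only in control libraries.

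STAT5A and STAT5B are near-identical paralogs that lie side by side on chromosome 17, and their windows share 8 regions, 1 of them called in all 6 lists. STAT5B (span 42199177 to 42288370, minus strand) had 2 small start regions. The region chr17:42276338-42277060 was called in silenced 2 (height 6) and control 1 (8), and chr17:42277103-42277368 in control 2 (8) and control 3 (3). Silenced 1 and silenced 3 had no peak there. The stretch shown above is rich in CpG, and of 776 starts within 2 percentage points of its G and C content, 70.2% had a peak in all 6 lists and 6.57% in none.

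Of the 43 regions in the whole STAT5B window, 33 were called in 1 list only. The shared region within the gene, chr17:42221897-42222689, had heights of 14, 14 and 11 in silenced and 20, 24 and 17 in control libraries. Every silenced value was below every control value, as on height at 8.79% of all shared regions. The same held on rank, as at 4.78% of all shared regions. The score difference was -0.336 (SE 0.233, adjusted p = 0.963, limma).

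STAT5A (span 42287439 to 42311943, plus strand) had a peak within 1 kb of a start in 2 lists. They were chr17:42287291-42287561 in silenced 3 (height 7) and chr17:42286372-42286571 in control 2 (height 8). The starts at positions 42287439, 42287547 and 42288498 have 54.8%, 65.6% and 74.4% G and C upstream. Of starts within 2 percentage points of each, 55.0%, 71.1% and 77.3% had a peak in all 6 lists. The start at position 42288498 had a peak within 1 kb in 1 list. The region shared by both windows, chr17:42291791-42292189, lies inside STAT5A, 3293 bp from its nearest start. Heights were 9, 8 and 9 in silenced and 13, 17 and 11 in control libraries. Each silenced value was below each control value, as at 8.79% of all shared regions. On rank the groups overlapped, and the difference was -0.281 (SE 0.392, adjusted p = 0.971, limma).

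STAT4, the IL-12 factor of T and natural killer cells, had no peak within 1 kb of either annotated start in any list (span chr2:191029576-191151596, minus strand). Of 1440 starts within 2 percentage points of the G and C content of its first start, 34.1% had none, and of 2391 starts like its second (56.4% G and C) 18.9% had none. The nearest shared region lay 3993 bp away (chr2:191155589-191156006), with heights of 11, 13 and 4 in silenced and 12, 11 and 6 in control libraries. The tallest, chr2:191020160-191020944, was in the flank beyond the far end of the gene, within 1 kb of an annotated start of STAT4-AS1. Heights there were 25, 28 and 11 against 28, 35 and 27. The others were small: chr2:191030431-191030893 (7, 6 and 4 against 10, 9 and 10) and chr2:191052135-191052454 (6, 9 and 3 against 9, 8 and 7).

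The region called only in control libraries, chr2:191051183-191051674, lies inside STAT4, 99320 bp from the nearest start. The control heights were 5, 6 and 5, with the authors' fold enrichments of 3.75, 4.02 and 3.80 and false discovery rates of 0.00841, 0.00281 and 0.00697. These are small peaks, and the region was not among those kept at a false discovery rate of at most 1e-05. The call in 3 against 0 libraries was not tested, since the exact two-sided permutation test cannot go below 0.10 in this design.

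**Figure D3:**
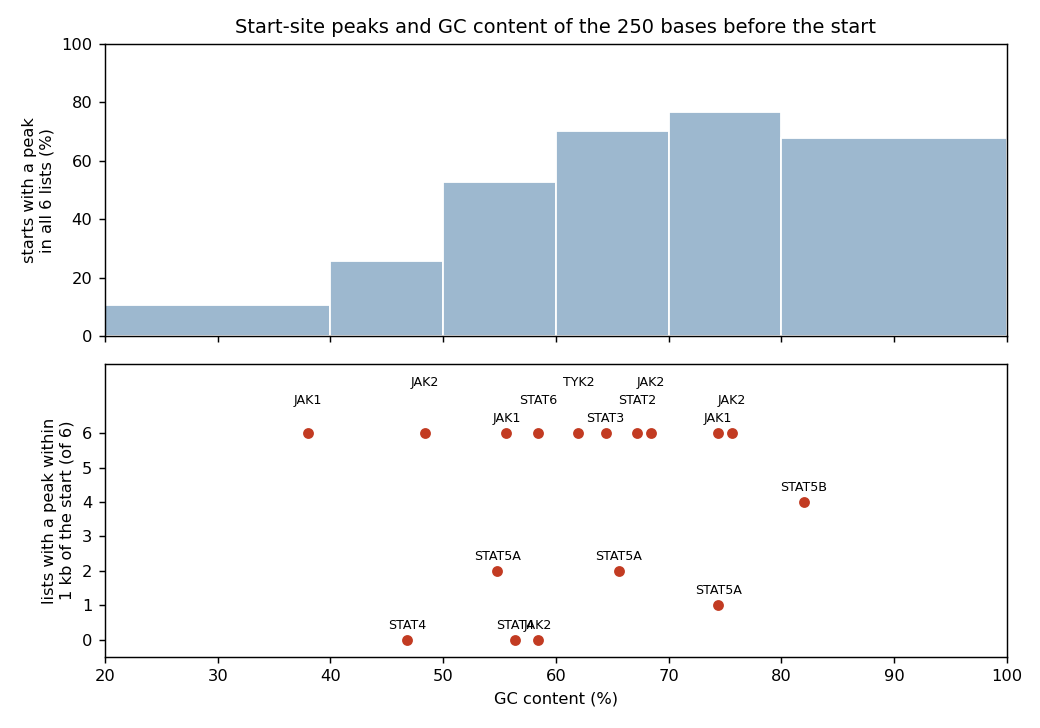
Percentage of protein-coding starts with a peak within 1 kb in all 6 lists, by G and C content of the 250 bases upstream (bars, from 0), and the 17 starts of the 9 genes by their own G and C content and number of lists with a peak (points). The share is 10.7% under 40% G and C and 76.6% from 70% to 80%; STAT4 sits at 0 lists and STAT5B, at 82.0%, at 4.

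Across the 29 shared regions of the windows, 14 had a higher and 15 a lower mean rank score in silenced libraries. None passed an adjusted p of 0.05 (limma, Benjamini-Hochberg) and none had an unadjusted p under 0.05. Of all 37284 regions 0% passed the adjusted threshold, and 4.68% had an unadjusted p under 0.05. The median difference was -0.0216 in the windows and 0.00662 over all regions, and the values ran from -0.649, at chr1:65020718-65021145 in JAK1 (12, 7 and 3 against 11, 10 and 11), to 0.771 at STAT6. Standard errors ran from 0.196 to 0.544, so the absence of calls does not show that the groups are alike.

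On height, every silenced library lay below every control library at 7 of the 29 regions, against 8.79% of all shared regions, and above at none (0.161% of all). The 7 are in STAT4, STAT5B, STAT6, JAK1 and the STAT5A region that STAT5B shares. The implied background coverage was 0.369, 0.402 and 0.237 in silenced 1 to 3 and 0.38, 0.464 and 0.372 in control 1 to 3. Its part in this count was not tested. On rank score, which is scaled within a list, silenced lay below control at 3 regions, in STAT4, STAT5B and STAT6 (4.78% of all), and above at 1, in STAT3.

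**Figure D4:**
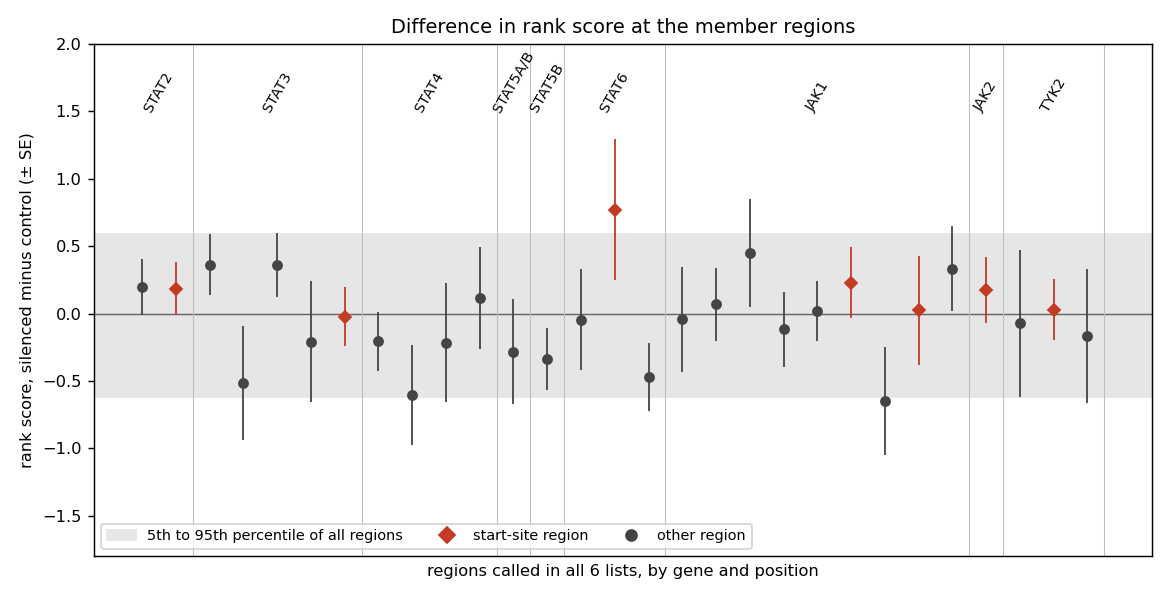
Difference in rank score, silenced minus control, with its SE for each of the 29 shared regions in the windows, grouped by gene; the grey band spans the 5th to the 95th percentile of all 37284 shared regions, -0.616 to 0.587. The STAT6 start region lies above the band and the lowest JAK1 region below it, both with wide errors.

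The covered length of each window, as a share of the list's whole covered length, gave no call either. On the log2 scale with 200 bp added, silenced minus control was 0.208 (SE 0.253) for STAT6 and 0.151 (SE 0.278) for TYK2. It was below 0 for the other 7, from -0.0549 (SE 0.263) for STAT5B to -0.318 (SE 0.23) for JAK1 and -0.326 (SE 0.345) for JAK2. Each adjusted p was 1.0 (limma). Of 18955 windows 0% passed and 3.25%, or 616, had an unadjusted p under 0.05, with none of the 9 among them. The median was -0.147 for the 9 and -0.071 for all windows, with 11590 of the 18955 windows lower in silenced libraries. The median over all windows turned to 0.0503 without control 2, to 0.0927 with peaks at a false discovery rate of at most 1e-05 and to 0.0623 with peaks of height 4 or more.

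Start-site peaks in all 6 lists were found for fewer of the listed receptors and ligands, and for more of the inhibitors and partners, than the 62.6% of all protein-coding genes with an annotated start, of which 17.1% had none. These shares were not tested, and listed genes without an annotated start were measured at either gene end. Of 42 receptor chains and related genes listed (TSLP, a ligand, stands in that list), 17 had a start-site peak in all 6 lists, 16 in some and 9 in none. The tallest by mean height over the 6 libraries, which are not scaled to each other, were LEPR, the leptin receptor (118, 138 and 82 in silenced; 134, 111 and 116 in control), GHR, the growth hormone receptor (93, 123 and 66; 102, 111 and 116), and OSMR, the oncostatin M receptor (79, 112 and 44; 105, 105 and 87). EPOR, IL10RA, IL12RB2, IL20RB and CSF2RA were among those with none. STAT4 and the IL-12 receptor chain IL12RB2 both lacked a start-site peak here. The chain IL12RB1 had one in 2 lists, and the ligand genes IL12A and IL12B had one in all 6. Of 26 ligands, 7 were called in all 6 lists, 14 in some and 5 (IFNB1, IL2, IL10, IL21 and IL23A) in none. By the same mean the tallest ligand starts were those of IL12A (34, 50 and 21; 26, 47 and 51), IL6 (30, 32 and 16; 26, 35 and 33) and CLCF1 (20, 19 and 10; 25, 36 and 20), and the order of close neighbours differs between libraries.

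Of 20 inhibitors, 17 had a start-site peak in all 6 lists, 2 in some and 1, the leukocyte phosphatase PTPRC, in none. SOCS5 (127, 144 and 80; 121, 133 and 127), the SUMO ligase PIAS3 (127, 141 and 51; 113, 127 and 118) and the phosphatase PTPN1 (72, 63 and 27; 53, 52 and 61) had the highest mean heights, with PTPN1 not the third in every library. Of 20 partners and targets, 18 were called in all 6 lists, 1 in some and 1, the astrocyte gene GFAP, in none. SH2B1, an adaptor that binds JAK2 (94, 103 and 60; 89, 104 and 94), the cyclin CCND2 (106, 84 and 57; 89, 87 and 81) and the acetyltransferase EP300 (75, 96 and 50; 79, 83 and 91) led this list.

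No listed gene had a start-site region called in all 3 libraries of 1 group and none of the other. The rank score fit took each gene's tallest start-site region where that whole region was called in all 6 lists. Its numbers therefore differ from the gene counts above: IL7R and CTF1 entered and CREBBP did not. In this fit, 8 of 18 receptor regions were higher in silenced libraries and 10 lower, and 4 and 4 of 8 for ligands. For inhibitors it was 12 and 5 of 17, and for partners and targets 9 and 8 of 17. None passed an adjusted or an unadjusted p of 0.05 (limma). The medians were -0.0846, 0.0173, 0.127 and 0.095, beside 0.00662 over all regions. In the fit of covered length, 2 of the 42 receptor windows and none of the other listed windows had an unadjusted p under 0.05, and none passed after adjustment.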

How the data were processed

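The authors deposited 1 peak list per library, with positions, a pileup signal (height), a fold enrichment as a ratio, a p-value and a false discovery rate (an adjusted p-value) per peak, per the file headers. Every p-value was at most 0.00987. The submitters' processing notes name Trimmomatic 0.36, Bowtie2 2.2.6, Picard 2.8.2, MACS2 2.1.1, bedtools 2.25.0 and GRCh38. Their settings, the shift of reads for the transposase and the handling of duplicates are not given in the sources used here. Libraries started from 10000 to 50000 cells, per the labels' protocols.

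Gene spans, starts and upstream sequences came from RefSeq tables (GRCh38.p14). Starts were given for 15843 of 20037 protein-coding genes, and for a listed gene without one either gene end was used. Exons, introns and UTRs were not analysed here. Peaks overlapping by at least 1 bp were merged. In regions called in all 6 lists, the strongest peak's fold enrichment was ranked within each list and turned into normal scores. Covered length per window was taken as log2 of covered bp plus 200 per Mb covered, for windows covered in at least 3 lists. Both were fitted with limma 3.58.1 in R 4.3.3 over all features, 3 silenced against 3 control libraries, with Benjamini-Hochberg adjustment. The fits were tested on simulated data with 200 shifted features each. At a shift of 1, each fit recovered 0 of the 200. At a shift of 2, the region fit recovered 137 and the window fit 169. Score differences at the 29 shared regions of the STAT and JAK windows ran from -0.649 to 0.771. The log2 differences of these windows ran from -0.326 to 0.208. At these sizes a lack of calls cannot tell a difference from none. Tables were built in Python 3.11.15.

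The genes and lists were chosen with earlier results of these data known. Named were the 9 genes; per list the 3 tallest starts, up to 5 without a peak in alphabetical order, and any group-only or called start; per window the start region, other shared regions (the 5 tallest beyond 5) and group-only regions; and the most alike gene per start. The region chr1:65020718-65021145 was named after its value was seen. Alternatives covered stricter peak limits, lists of equal size, other ranks, window sizes, the replicate block and each library left out.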

Additional observations from a re-analysis of the deposited data

How the results depend on the processing

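Limits: peak lists hold no counts, the depth in reads is unknown, and regions under the authors' limit are absent from a list, which weighs most on the short list of control 2 and the shallow silenced 3. No shared region passed an adjusted p of 0.05 in any of 13 alternatives of the rank score fit (limma), with 854 to 2462 at an unadjusted p under 0.05. The window fit had 0 calls except without silenced 3 (1), control 1 (11) or control 3 (5), a range of 0 to 11 with none of the 9 genes among them. Libraries with the same replicate number showed little shared deviation: correlations of deviations were -0.00196, 0.00238 and -0.00829 for regions and 0.0819, -0.125 and -0.0964 for windows. These values cannot tell whether the libraries were prepared in pairs, which the labels do not give. With a replicate block both fits had 0 calls (1770 regions and 462 windows at an unadjusted p under 0.05). The count of regions called only in control libraries was 0 at a false discovery rate of at most 1e-05 and 1 to 2 when a library was left out (2 without any 1 of the controls). That of regions called only in silenced libraries was 0 to 2 (2 without silenced 3 or control 3, 1 without control 2). The difference in peaks per library ran from -9.67 to 4.17, and the number of genes with a start-site peak in all 6 lists was 6 in each, and 5 at the strict rate or within 500 bp. Start-site differences changed sign, all far from any call, for the JAK1 first start (from -0.0673 to 0.218 when a library was left out; -0.0668 ranked by p-value, -0.0135 ranked by height, -0.0434 without silenced 1, -0.0673 without silenced 2, -0.0373 without control 1), STAT3 (-0.154 to 0.151; 0.119 without silenced 2, 0.151 without control 3), TYK2 (-0.21 to 0.192; -0.0717 without silenced 3, -0.21 without control 1) and JAK2 (-0.0272 to 0.314; -0.0272 without silenced 3). The cause was not tested. STAT2 stayed between 0.0459 and 0.258 and the JAK1 inner starts between 0.0735 and 0.388 when a library was left out, but ranked by p-value or height they were 0.0659 and 0.0478 for STAT2 and 0.0993 and 0.00102 for JAK1. STAT6 ranged from 0.174 to 1.16, with no value without silenced 2, where its region was not called as 1 region in the 5 lists.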

Other observations

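For each of the 6 genes with a start-site region called in all 6 lists (for JAK1, the inner starts only), the protein-coding gene whose start had the most similar 6 percentiles was found by Euclidean distance among 9842 genes, as a description of level and not of function. The likeness was closest for STAT3, whose neighbour PHACTR4, a regulator of protein phosphatase 1 and actin, differed by 1.33 percentile points, from 96.1 to 98.9 over the 6 libraries. STAT2 was nearest to the zinc finger gene ZNF322 at 2.86 points, and TYK2 to NUDC, a nuclear distribution factor, at 4.2. Both NUDC and TYK2 were lowest in control 1, at 87.1 and 83.9. The middle and low starts had less close neighbours: JAK2 lay 7.23 points from NAPEPLD, a phospholipase D-type enzyme that makes N-acylethanolamines, STAT6 lay 8.82 from CCDC136, and the JAK1 inner starts lay 8.95 from LOC124904106. Genes near the top of the range share a narrower span of percentiles, so the distances are not comparable between tall and low starts.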
